A study of Mus musculus with 12 samples.

Results

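The constitutive distal domains are stretches of accessible chromatin that were open in every population of this differentiation series and lie away from the promoters of protein-coding genes. They were chosen by their positions in the deposited lists of accessible domains. A domain of the day 2 progenitor list was taken when it was at least 150 bp wide, overlapped a domain of each of the other 5 lists by at least 1 bp, and had no transcription start site (TSS) of a protein-coding transcript within 1 kb. Of 87916 progenitor domains, 41544 passed the width, 27223 of these were distal, and 8163 were in all lists. The members were thus 9.29% of the progenitor list, 30% of its distal domains of 150 bp or more, and a small share of the 482514 domains of all 6 lists. The overlap, the width in day 2 progenitors and the TSS distance chose the members, so these are described here and support nothing.

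Accessibility was measured by ATAC-seq, in which a transposase inserts sequencing adapters into DNA that is not wrapped in nucleosomes. Mouse embryonic stem cells of the Ainv15 line were differentiated towards motor neurons as embryoid bodies (EBs) with retinoic acid (RA) at 1 µM and the Hedgehog agonist SAG at 0.5 µM. The 12 samples formed 6 groups of 2. EB was collected on day 0 without RA or SAG, and the day 2 progenitors after 2 days of both, and each of these came from Ainv15(iCre), the parental line. The other groups were collected on day 4 of RA and SAG. The iHoxc6, iHoxc9 and iHoxc10 groups came from the lines Ainv15(iFlag.Hoxc6), Ainv15(iFlag.Hoxc9) and Ainv15(iFlag.Hoxc10), whose Flag-tagged Hox transgene was switched on with doxycycline (Dox) at 3 µg/mL for the last 48 h. The no Dox control was the Ainv15(iFlag.Hoxc6) line without Dox. All groups were whole embryoid body cultures and therefore mixtures of cells, and each transgenic group was 1 line.

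Each list was made from both samples of a group together and holds only starts and ends. No value per replicate existed, so no comparison below has a replicate error or a test. Shares carry 95% Wilson intervals and differences of shares 95% Newcombe intervals, which count domains as independent, though neighbours need not be, and cover counting error only. The lists held 56232 (iHoxc10) to 94875 (EB) domains with median widths of 129 bp (EB and iHoxc6) to 212.5 bp (iHoxc10). Cell line and calling settings cannot be told apart from group. The labelled identities were compared with domains at the promoters of defining genes. Domains at Pou5f1 and Nanog, pluripotency genes, were in the EB list and in none of the other 5 lists, and domains at the neural progenitor genes Olig2, Nkx6-1 and Pax6 were in all 6 lists, EB included. The motor neuron genes Isl1, Mnx1 and Lhx3 had promoter domains in all 6 lists, Chat had none in the iHoxc9 list, and the liver, red cell and white cell genes Alb, Gata1 and Ptprc had none in any list.

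Distal accessible elements include enhancers, whose openness usually differs between cell types, and insulators, which tend to be open in most cell types. The best known insulator protein of mammals, CTCF, binds a long G and C rich motif through its zinc fingers and, together with the cohesin ring, anchors chromatin loops and the borders of domains. CTCF also holds apart the maternal and paternal chromatin states at several imprinted loci, where only 1 parental copy of a gene is active.

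The central question was which DNA sequences these lasting elements hold. The motif with the largest excess in them, in percentage points over other distal domains, was the 12-letter core of the CTCF motif, searched on both strands with at most 1 mismatch in the central 200 bp of the progenitor domain, a window that reaches past the edges of domains under 200 bp. The 5 examples from imprinted loci and the X inactivation centre are shown because CTCF is a known regulator of such loci. They are 100 bases each of the mm10 (GRCm38) reference from RefSeq, read 5′ to 3′ on the minus strand, and capitals mark the match to the core.
Dlk1-Meg3, chr12:109542996-109543095: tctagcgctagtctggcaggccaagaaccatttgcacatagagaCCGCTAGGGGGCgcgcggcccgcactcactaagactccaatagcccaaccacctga
Peg3-Usp29, chr7:6918417-6918516: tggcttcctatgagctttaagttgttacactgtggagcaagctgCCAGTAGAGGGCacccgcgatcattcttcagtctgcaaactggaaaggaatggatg
Igf2r-Airn, chr17:12810619-12810718: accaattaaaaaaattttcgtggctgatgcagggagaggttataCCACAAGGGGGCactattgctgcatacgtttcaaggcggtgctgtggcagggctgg
Grb10, chr11:11973563-11973662: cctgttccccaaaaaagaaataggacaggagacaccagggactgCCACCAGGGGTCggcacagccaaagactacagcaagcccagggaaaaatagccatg
Xist-Jpx, chrX:103532776-103532875: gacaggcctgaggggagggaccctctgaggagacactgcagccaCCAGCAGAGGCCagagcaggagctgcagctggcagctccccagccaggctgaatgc

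The Dlk1-Meg3 domain lies in an exon of a gene that is not protein-coding, 57.1 kb from the TSS of Rtl1. The Peg3-Usp29 domain lies in an intron of a protein-coding gene, 29.1 kb from the TSS of Usp29. The Grb10 domain lies 2.74 kb from a Grb10 TSS in an intron, and the domains of the Igf2r-Airn and Xist-Jpx loci lie in introns of genes that are not protein-coding. The core was read with 302 different words in the members, which held 2249 matches in their central windows. The most frequent words were CCACTAGGTGGC with 82 matches, CCAGCAGAGGGC with 79, CCACCAGGGGGC with 78 and CCAGCAGGTGGC with 77. A match is a description of the letters and not a measured binding site.

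The CTCF core was present in 2088 of 8163 members, or 25.6% (24.6 to 26.5), and in 1121 of the 19060 other distal domains of 150 bp or more, or 5.88% (5.56 to 6.22). Over all distal progenitor domains the share was 11.8%. The difference was 19.7 percentage points (18.7 to 20.7), a ratio of 4.35. Domains in all lists that lay at promoters, 12522 in number, held it in 3.97%. Windows of the same length 5 kb to either side of the members held it in 2.35%, and 1323726 windows spread over the genome in 1.56%. The same 12 letters in reversed order, which keep the base composition but begin with a CG dinucleotide, were found in 0.625% of members, 0.289% of other distal domains, 1.25% of the promoter domains and 0.19% of genome windows. The members' share with the core was thus above that of each of the other sets of windows.

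The share with a core rose with the number of lists that held a domain. Among distal progenitor domains found in none of the other lists, 1.77% (1.37 to 2.29) had the core. The share was 3.71% with 1 other list, 4.62% with 2, 7.44% with 3 and 8.87% with 4, against 25.6% with all 5. The largest step was the last one. Of the 6064 domains with 4 other lists, however, 4321 were missing from EB, and 3.03% of these had the core. The last step therefore mixed the number of lists with presence in EB.

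**Figure D1:**
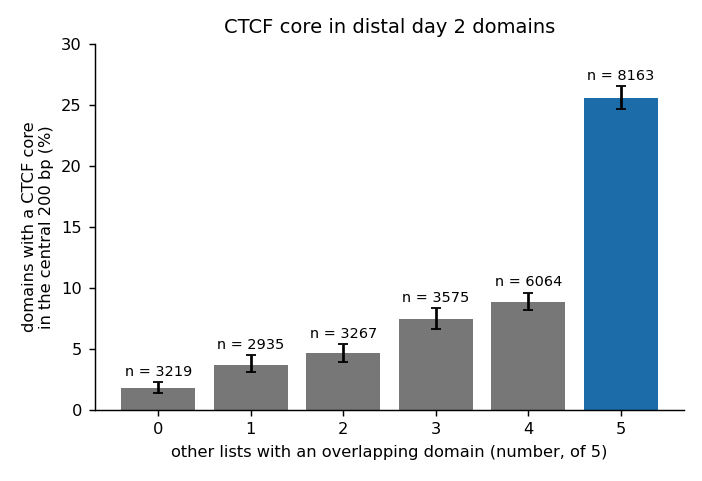
Share of distal day 2 progenitor domains with a CTCF core in the central 200 bp (y axis, %) against the number of other lists with an overlapping domain (x axis); bars are shares, error bars 95% Wilson intervals, and n is the number of domains. The share rose from 1.77% in domains of the progenitor list alone to 25.6% in the constitutive distal domains (blue).

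Which list a domain was missing from also mattered. The 4321 distal progenitor domains absent from the EB list alone had the core in 3.03% (2.56 to 3.59), below the 11.8% of all distal domains. The 778 domains absent from iHoxc9 alone had it in 18.5%, and the 776 absent from iHoxc10 alone in 26.4%. The 110 absent from the no Dox list alone had it in 26.4% and the 79 absent from iHoxc6 alone in 36.7%. Domains missing from a single day 4 list thus carried the core in 18.5 to 36.7%, on either side of the members' 25.6%, and domains missing from EB alone least often. When the EB list was left out of the rule, 12484 domains qualified, 17.8% of them had the core, and the difference from the other distal domains was 11.1 points.

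Seen from the motif, domains with a core were kept more often. Of the 3209 distal progenitor domains with a core, 65.1% (63.4 to 66.7) were in all 5 other lists, against 25.3% (24.8 to 25.9) of the 24014 without, where 30% is the share over all distal domains. The EB list held 88.3% of domains with a core and 40.4% of those without, a difference of 47.9 points (46.6 to 49.2), the largest of the 5 lists. The corresponding shares were 91.5% and 75.6% in the no Dox list, 91.2% and 74.1% in iHoxc6, 80.7% and 51.9% in iHoxc9, and 78.4% and 55.7% in iHoxc10. The iHoxc9 and iHoxc10 lists are the shortest. Whatever the other lists held, 4523 of the 26642 distal domains of the EB list had a core (interval 16.5 to 17.4%), against 11.1% (iHoxc10) to 13.3% (iHoxc6) of those of the other 5 lists.

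In the central window the core was most frequent in the narrow members. Of the 2167 members of 150 to under 250 bp in day 2 progenitors, 54.5% (52.4 to 56.6) had it, against 9.46% (8.82 to 10.1) of 7540 other distal domains of that width. The shares were 25.4% and 4.89% at 250 to under 400 bp, 11.5% and 81 of 4128 (1.58 to 2.43%) at 400 to under 700 bp, and 4.28% and 1.62% at 700 bp or more. Members led at each width, by 45.1 points in the narrowest class and 2.66 points (1.33 to 3.97) in the widest. The central window misses cores that lie off the middle of wide domains. Over the whole domain, exactly 1 core was found in 22.4% of members and 5.16% of other distal domains at 400 to under 700 bp, and in 18.7% and 7.71% at 700 bp or more. The share did not fall steadily with width, being 35.4% in members of 200 to under 250 bp and 48.8% at 300 to under 350 bp. Within 150 to under 250 bp, 62.4% of domains with a core were in all lists and 12.6% of those without. Base composition was compared in the same way. Members with central windows of 40 to under 50% GC had the core in 26.1% and other distal domains in 4.18%. At 50 to under 60% GC the shares were 31.7% and 10.6%, below 40% GC they were 12.3% and 1.98%, and at 60% GC or more 15.3% and 8.32%.

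**Figure D2:**
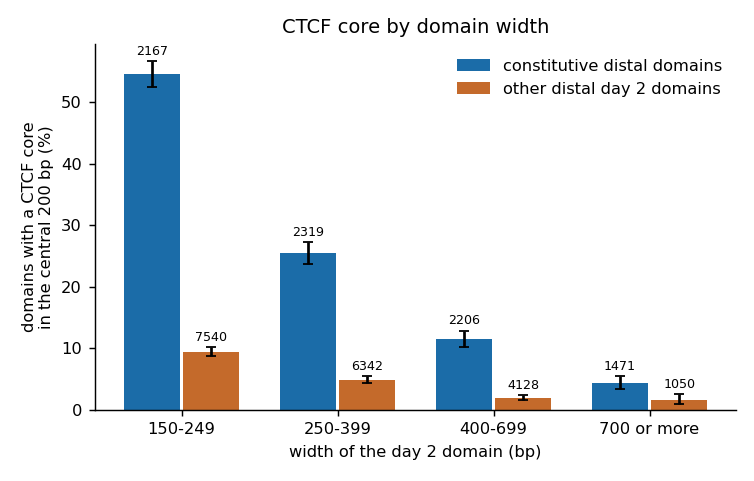
Share of domains with a CTCF core in the central 200 bp (y axis, %) in 4 classes of day 2 width (x axis, bp) for the constitutive distal domains (blue) and the other distal domains (orange); error bars are 95% Wilson intervals and the numbers above the bars are domains. The members' share was above that of the other domains in each class and fell from 54.5% in the narrowest to 4.28% in the widest.

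Neither limit of the rule coincided with a jump in the motif. Domains in all lists that just missed the width, at 140 to under 150 bp, numbered 501 and had the core in 67.3%, and the 368 members of 150 to under 160 bp had it in 65.2%. The 64 domains with a TSS over 900 and up to 1000 bp away had it in 21.9%, and the 87 members with a TSS no more than 1100 bp away in 23.0%.

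The core lay at a near constant distance from an edge of its domain. Over the whole progenitor domain rather than its centre, 3151 members, or 38.6%, held at least 1 core, against 8.44% of the other distal domains. In members of 150 to under 200 bp with exactly 1 core, 840 in number, the core lay near the middle, with a median of 11.5 bp between its centre and the midpoint, 72 bp to the nearer edge and 96 bp to the farther edge. In the 783 members of 300 to under 400 bp with 1 core, the nearer edge was 75 bp away (quartiles 61 and 90), as in the narrow members, but the farther edge was 266 bp away (250 and 283). The core was then 95 bp from the midpoint. As both distances add up to the width, the wider members differed from the narrow ones mainly on 1 side of the core. From 400 bp upward the core was farther from both edges, with medians of 116.5 and 368.5 bp below 700 bp of width. The long side lay 3′ of the core, read as CCACTAGGTGGC is written above, in 452 of the 783, or 57.7% (54.2 to 61.1), and in 58.6% (55.2 to 61.9) of the 840 narrow members. In the other distal domains of 300 to under 400 bp with 1 core, 360 in number, the nearer edge was at 71 bp and the farther at 260 bp, close to the members' values. These width classes were drawn after the widths had been seen.

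**Figure D3:**
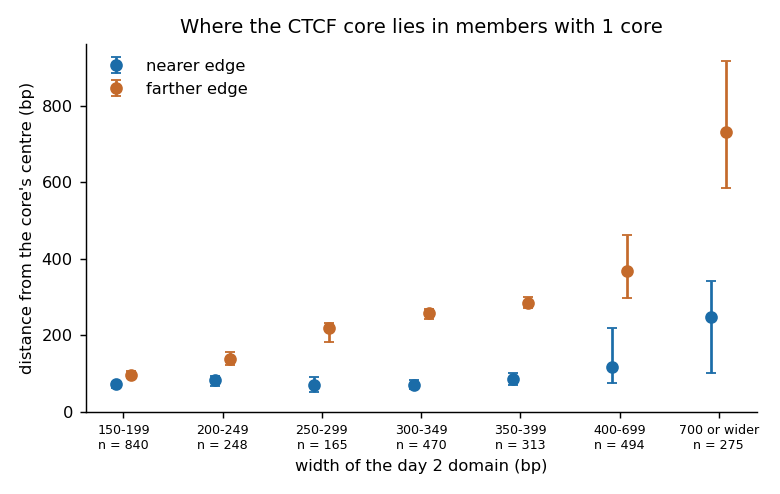
Distance from the centre of the CTCF core to the nearer (blue) and the farther (orange) edge of the domain (y axis, bp) in members with exactly 1 core, by day 2 width (x axis, bp, with the number of members); points are medians and bars span the quartiles. Below 400 bp the nearer edge stayed at 69 to 85 bp while the farther edge moved from 96 to 285 bp.

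The widths of members with a core had a peak near 150 bp and another near 350 bp in every list. In day 2 progenitors, counted in steps of 20 bp, 431 of them were 160 to 179 bp wide. A further 60 were 260 to 279 bp wide and 212 were 320 to 339 bp wide. The minimum width of 150 bp removed part of the step just below 160 bp. The position of the first peak in day 2 progenitors therefore cannot be told. The low point between the first and the second peak lay at 260 to 279 bp in all 6 lists. The second peak was at 320 to 379 bp and stood 2.33 (iHoxc10) to 3.59 (no Dox) times above the low point. Outside day 2, where the rule set a minimum width, small pieces formed a further group, of 143 members with a core at 20 to 39 bp in iHoxc9, 84 in EB and 33 in no Dox. In iHoxc9 this group stood above the peak of 116 near 350 bp. In members without a core the ratio of the second peak to its low point was 1.13 (iHoxc9) to 1.81 (no Dox). The same member was often narrow in one list and wide in another. Of the 1068 members with a core that were 280 to under 440 bp wide in day 2 progenitors, 38.3% were in that class in the no Dox list, 37.1% in iHoxc6, 33.7% in EB, 28.3% in iHoxc10 and 24.2% in iHoxc9. Those that were 80 to under 240 bp wide instead made up 33.7% in the no Dox list and 53.8% in iHoxc9. Only 215 of the 3151 members with a core were 80 to under 240 bp wide in all 6 lists, and 23 were 280 to under 440 bp wide in all 6.

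**Figure D4:**
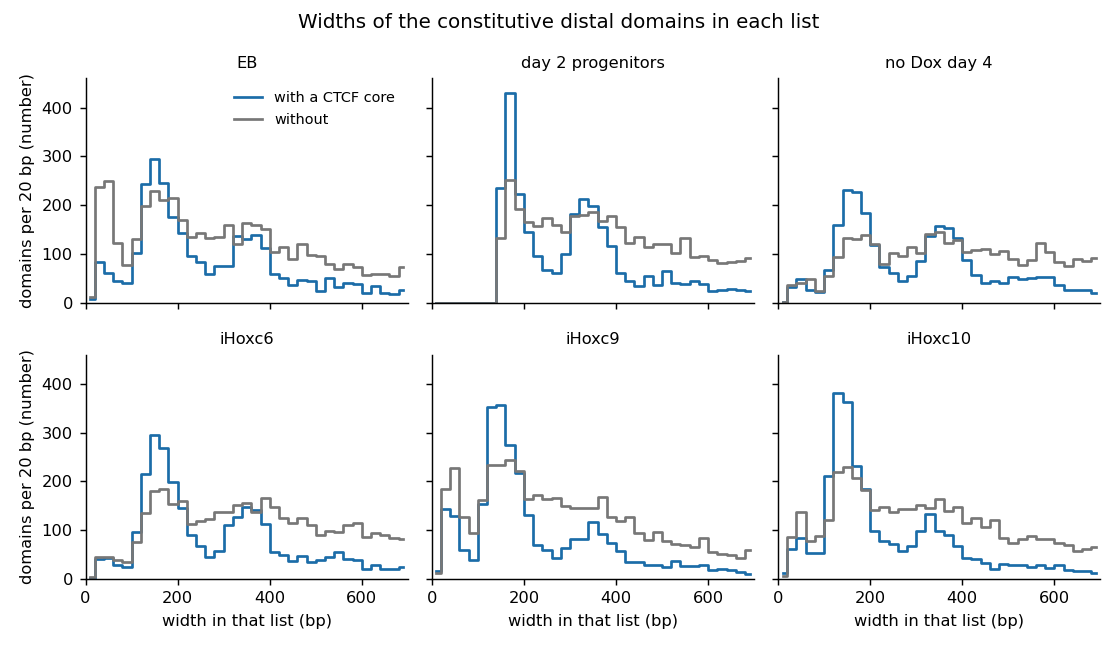
Number of constitutive distal domains (y axis, per 20 bp) by their width in each of the 6 lists (x axis, bp, up to 700 bp) for members with (blue) and without (grey) a CTCF core anywhere in the progenitor domain. Members with a core form peaks near 150 bp and near 350 bp in every list, with a low point at 260 to 279 bp. Small pieces form a further group at 20 to 59 bp outside day 2. No member is under 150 bp in the day 2 list because the rule excluded it. The position of the first peak in that list therefore cannot be told.

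Taken over all members, widths differed between the lists. The median was 370 bp in day 2 progenitors, where the rule set a minimum, 422 bp in the no Dox list, 365 bp in iHoxc6, 301 bp in iHoxc10, 293 bp in EB and 245 bp in iHoxc9. Domains at promoters in all lists followed a like order, from 679 bp in iHoxc9 and 739 bp in EB to 1044 bp in the no Dox list. The no Dox list held the widest version of 3028 members, or 37.1%, and EB and iHoxc9 the narrowest of 30.9% and 30.3%. Members with a core in the central window had medians of 166 bp (iHoxc9) to 262.5 bp (no Dox), and those without it 300 bp (iHoxc9) to 520 bp (no Dox). A share of the overlaps that placed a domain among the members was thin. The EB domains covered at least 50% of the progenitor domain for 68.5% of members, iHoxc9 for 65.4%, iHoxc10 for 73.3%, iHoxc6 for 83.1% and no Dox for 87.1%. Overlapping domains summed to under 50 bp for 6.98% of members in EB and 7.25% in iHoxc9. With at least 50% covered in every list, 3437 members remained, of which 31.4% had a core in the central window.

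Matches lay on both strands alike, with 963 members holding the core on the plus strand, 1043 on the minus strand and 82 on both. Convergent CTCF motifs are known to mark loop anchors, so neighbouring members with a core were compared along each chromosome, leaving out the 82 with cores on both strands. Of 1985 pairs that were consecutive among the rest, 48.3% pointed the same way, 25.7% faced each other and 25.9% faced away, with median distances of 531, 727 and 499 kb. Along a chromosome, facing and diverging pairs of this kind must alternate, so their near equality was fixed by the counting. It cannot show whether convergent pairs are more frequent. Most members with a core held 1 match in the central window (1935), 145 held 2 and 8 held 3 or more.

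Beyond CTCF, 26 short motifs were searched on both strands without mismatch in the same central windows. Of these, 7 were more frequent in members than in other distal domains, 17 were less frequent, and for 2 the interval of the difference held 0. The more frequent ones were mainly motifs of ubiquitous promoter factors. The GGGCGGG box of SP and KLF factors was in 11.4% of members and 3.33% of other distal domains, a difference of 8.05 points (7.33 to 8.80), and in 35.8% of the promoter domains and 0.966% of genome windows. CCGGAAG, bound by ETS factors, was in 2.54% and 0.923%. The YY1 motif AANATGGCG was in 0.686% and 0.205%, the CREB and ATF site TGACGTCA in 0.637% and 0.189%, and the NRF1 motif GCGCATGCG in 0.478% and 0.0525%. The other 2 were the E-box CAGCTG (17.3% and 15.8%) and the KLF motif GGGTGTGG (1.62% and 1.31%). The first 5 hold a CG dinucleotide, and the members' central windows had a median GC of 53% against 46.5% in the other distal domains.

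Motifs of patterning factors were less frequent in members. TAAT, the core read by central Hox proteins, was in 46.8% of members and 67.4% of the other distal domains, and ATAAA, the posterior Hox core, in 25.8% and 40.8%, where genome windows held them in 74.8% and 54.5%. TGATTNAT, bound by Pbx together with Hox, was in 2.66% and 6.63%, and TGACAG, the Meis site, in 14.2% and 18.2%. The SOX motif ACAATGG was in 4.03% and 9.69% (genome windows 3.53%), and AGGTCA, the unit read by nuclear receptors including those for RA, in 11.8% and 18.3%. AGATAA of GATA factors was in 6.46% and 11.9%, and TAATTA, read by homeodomain proteins such as Lhx3 and Isl1, in 3.64% and 6.84%. TAATTA contains TAAT, so these counts overlap. The GLI motif GACCACCCA of the Hedgehog effectors was rare in both, at 0.245% and 0.540%. Hox, Pbx, Meis and SOX letters were therefore sparser where accessibility was shared by all lists.

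Because AT-rich letters are fewer in GC-rich windows, the motifs were compared again at equal GC, a choice made after the data were seen. At 40 to under 50% GC, with 2331 members and 10501 other distal domains, 5 motifs were more and 11 less frequent in members. The TAAT difference shrank from 20.7 points below the other domains to 70.5% against 75.8%. SOX remained at 6.13% against 11.2%, Pbx with Hox at 4.38% against 7.42%, and the nuclear receptor unit at 13.7% against 19.3%. The SP box no longer differed beyond its interval (1.37% against 1.02%), and TAATTA neither (6.39% against 7.13%). The intervals of CAGCTG and the KLF motif also held 0. Motifs that stayed more frequent were rare. ETS was at 0.987% against 0.552% and YY1 at 0.472% against 0.133%. The CREB and ATF site was at 0.343% against 0.133% and NRF1 at 0.129% against 0%. The octamer ATGCAAAT, whose interval held 0 over all windows, was more frequent here (2.87% against 2.12%, 0.0785 to 1.55 points). At 50 to under 60% GC, with 3645 members and 5286 others, 7 motifs were more and 11 less frequent. SOX was then at 3.73% against 7.70% and Meis at 16.1% against 19.7%. The octamer was again more frequent in members (2.06% against 1.17%), and the intervals of CAGCTG and the KLF motif again held 0. In that class the SP box was more frequent in members (7.27% against 5.41%, 0.834 to 2.92 points) and TAATTA less (2.52% against 3.76%), so for both the interval held 0 in the lower of these GC classes and not in the higher.

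**Figure D5:**
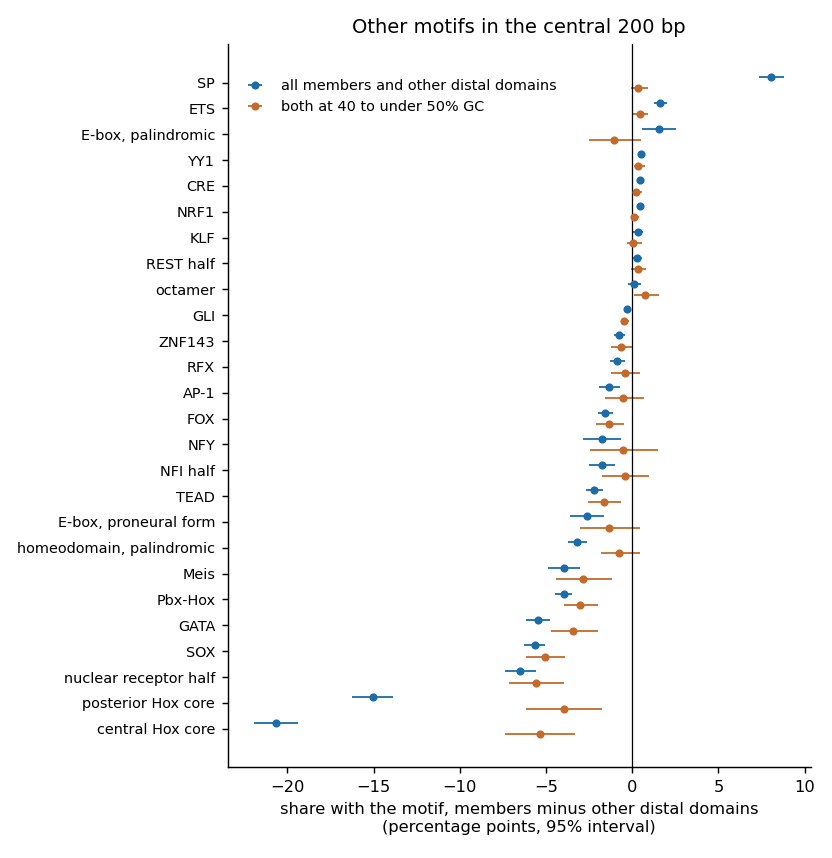
Share of constitutive distal domains with each of 26 motifs minus the share of other distal domains (x axis, percentage points, with 95% Newcombe intervals) for all domains (blue) and for windows of 40 to under 50% GC (orange). The SP box is highest at 8.05 points over all domains, and the central and posterior Hox cores are lowest and move towards 0 at equal GC, while SOX and the nuclear receptor unit keep most of their difference.

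The motif counts also depended on where a motif was looked for. In whole progenitor domains, which were wider in members (median 370 bp) than in the other distal domains (286 bp), 12 of the 26 motifs were more frequent in members. The direction turned for CATCTG, the proneural E-box, from 2.62 points below to 2.56 above, for CCAAT of NF-Y and for TTGGCA of NFI. For the Meis site the interval of the difference then held 0 (0.253 points, -0.903 to 1.42). The Hox, Pbx, SOX, GATA and nuclear receptor motifs remained less frequent in members.

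Members with and without a CTCF core differed in what else they held. Of members without the core in the central window, 13.1% had the SP box, against 6.32% (5.36 to 7.45) of those with it. CATCTG was in 21.9% (20.2 to 23.8) of members with the core and 14.3% (13.4 to 15.2) of those without. Some core words contain CATCTG on the opposite strand, and when matches that overlapped a core were left out, a choice made after the data were seen, the first share was 16.4% (14.9 to 18.1).

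Some members had features of promoters that the rule had not removed, in 2 forms that overlapped only in part. The TSS of a gene that is not protein-coding, or of a transcript that does not code for protein, lay within 1 kb of 1328 members, or 16.3% (15.5 to 17.1), against 6.55% (6.21 to 6.91) of the other distal domains. CpG-rich windows, with GC above 50% and an observed over expected CpG ratio above 0.6, made up 18.9% of members and 3.01% of the others. The median CpG ratio was 0.340 in members, 0.199 in other distal domains and 0.853 in the promoter domains. These features went with width, opposite to the CTCF core in the central window. Members within 1 kb of such a TSS rose from 8.63% at 150 to under 250 bp to 29.4% at 700 bp or more, CpG-rich members from 9.14% to 35.6%, and members with the SP box from 6.18% to 19.6%. Members that were CpG-rich and within 1 kb of such a TSS numbered 542, or 6.64%, so most members with either feature lacked the other. Members with the core and CpG-rich at once were 2.21%. A further 50.2% of members (49.1 to 51.3) had no core in the centre, no such TSS and no CpG-rich window, against 85.9% of the other distal domains. Without the members at the TSS of any gene type, 6835 remained and 27.5% of them had a core.

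By the annotation at their midpoints, 47.7% of members (46.6 to 48.8) were intergenic and 33.7% (32.7 to 34.7) lay in introns of protein-coding genes, where the other distal domains had 45.7% and 42.0%. Coding exons held 4.23% of members (3.81 to 4.68) and 1.56% of the others (1.40 to 1.75), and untranslated exons 2.34% and 1.53%. The median distance to the nearest protein-coding TSS was 23.8 kb in members and 50.7 kb in other distal domains, and 17.8% and 34.6% lay more than 100 kb away. Members were thus closer to a protein-coding TSS, by a distance of which the rule had used only the first 1 kb. Repeats marked in the reference covered 10.2% of the members' central windows on average and 11.2% of those of the other distal domains, against 36.4% of genome windows.

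The density of members was 2.34 (chromosome 14) to 4.40 (chromosome 11) per Mb on the autosomes, 0.842 on X and 0.338 on Y. On Y, 31 of 38 distal domains were members, 81.6%, against 30% over all chromosomes. Neighbouring members were a median of 125 kb apart, and 13.6% of gaps were 12.5 kb or less. Joined at that distance they formed 7057 stretches, of which 6269 held 1 member and 34 held 5 or more. The most populous held 17 members over 55.4 kb at chr4:147398015-147453422, near the zinc finger genes Zfp978 and Zfp982. The next held 15 members over 55.0 kb at chr1:171514580-171569545, nearest to Alyref2, Cd244a and Itln1, and another held 11 over 26.4 kb of Y near Gm21860.

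Some members lie in sequence present in several copies, where the place of a read is uncertain. The 32 bases at the centre of a member occurred more than once on chromosomes 1 to 19, X and Y for 361 members, or 4.42% (4.00 to 4.89), and for 2.12% (1.92 to 2.33) of the other distal domains. This held for 7 of the 17 members near Zfp978, for 7 of the 11 near Gm21860 and for 20 of the 31 on Y, and for none of the 15 near Cd244a. In the 7802 members whose central 32 bases occurred once on these chromosomes, 26.2% had the CTCF core, against 5.94% of such other distal domains. The mitochondrial genome was not part of that count. Close copies of mitochondrial DNA were also among the members. A word of 32 bases of the mitochondrial genome was in 11 members and in 0 of the 19060 other distal domains. In the domain at chr1:24611530-24616203, 98.3% of words were mitochondrial, and in chr2:22587276-22590564, 47.5%. The centre of the domain on chromosome 1 nevertheless counted as occurring once.

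Some of the 11 had nearly the same extent in all lists and others did not. The domain on chromosome 1 was 4638 bp wide in EB, 4674 in day 2 progenitors and 4608 in no Dox, with 4639, 4628 and 4636 bp in iHoxc6, iHoxc9 and iHoxc10. The domain on chromosome 2 was 3263 (iHoxc6) to 3303 bp wide (iHoxc9). That at chr12:97061480-97061762, with 87.3% mitochondrial words, was 263 to 344 bp wide, that at chr6:9889908-9890158, with 60%, 201 to 257 bp, and that at chr5:60042777-60043032, with 56.4%, 19 bp in no Dox and 299 bp in EB. Of another kind, the domain at chr17:39842984-39848844 was 5853 to 5872 bp wide in the 6 lists, with 70.5% GC in its central window, in an exon of a gene that is not protein-coding. The domains on chromosomes 1 and 17 are among the 5 widest members. The widest, at chrY:90803037-90809665, was 10055 bp in EB, 6629 in day 2 progenitors and 4626 to 6303 bp at day 4, and it also held the most cores, 6. The others of the 5 were chr4:3079653-3084773 (3426 to 5121 bp over the 6 lists) and chr13:107887857-107891490 (2673 to 3979 bp). Next in number of cores were chrX:75673781-75674672 and chr7:99151368-99151688 with 4 each, and chr13:23400779-23402450 and chr9:123924279-123925825 with 3 each. The domain on chromosome 7 was narrow for that number, at 321 bp in day 2 progenitors and 231 (iHoxc9) to 386 bp (EB) elsewhere.

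The nearest protein-coding gene was found for every member. Of 21911 protein-coding genes, 5236 were nearest to at least 1 member, or 23.9%, and 131 to 5 or more. In fixed lists of genes the share was higher for developmental regulators. It was 15 of 19 neural progenitor genes, 9 of 13 Hedgehog pathway genes, 6 of 9 TALE cofactor genes, 11 of 18 motor neuron genes, 8 of 14 RA pathway genes and 15 of 28 imprinted genes. It was 7 of 18 for the pluripotency genes and 7 of the 18 found of 19 genes of chromatin architecture, near the background at 5 of 18 for genes specific to other tissues and 2 of 12 for housekeeping genes, and 9 of 41 for the Hox genes. Of all protein-coding genes, 33.1% were nearest to at least 1 of the other distal domains. That share was 19 of 19 neural progenitor genes, 16 of 18 motor neuron genes, 12 of 14 RA pathway genes, 10 of 13 Hedgehog genes and 6 of 9 TALE genes, and 18 of 41 Hox genes. Of the distal domains nearest to neural progenitor genes, 33.1% were members, of those nearest to Hedgehog genes 27.6% and of those nearest to motor neuron genes 22.7%, against 30% overall. The share was 22.2% (pluripotency) to 35.8% (imprinted) over the lists other than chromatin architecture, whose 12 members and 12 other domains gave 50%. So neural progenitor, Hedgehog, TALE, motor neuron, RA and imprinted genes were more often nearest to distal domains of either kind than all genes were. For members, the 95% intervals of these lists lay above 23.9%, with the lowest bound at 32.6% (RA). The intervals of the other lists held 23.9%, as for pluripotency and chromatin architecture (each 20.3 to 61.4%) and other tissues (12.5 to 50.9%). Apart from chromatin architecture, the constitutive share among the lists' distal domains was near that of all distal domains.

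Among the neural progenitor genes, Sox9 and Nkx2-2, transcription factors of glial and ventral fates, were each nearest to 6 members, Sox1 and Hes1 to 5, and Nkx6-1 to 4. The 46 members of this list held 4 with a CTCF core. In the Hedgehog list, Foxa2, a factor of the floor plate, was nearest to 8 members and Gli2, an effector of Hedgehog signalling, to 4, and none of the 21 members of the Hedgehog list had a core. In the TALE list, Meis1 and Meis2 had 6 members each and Pknox2 5, with a core in 3 of the list's 23. Rara, a receptor for RA, had 4. In the imprinted list, Usp29 had 7 members and Ndn 6, and 8 of 34 had a core, near the 25.6% of all members. Of the genes outside the lists, those nearest to the most members were Celf4 and Gm21860 with 13 each, then Gse1, Mef2c, Zfp386 and Zfp978 with 12, and Adam6a, Rapgef5, Sfi1 and Zfp608 with 11. Of the 11 members nearest to Adam6a, which lies in the immunoglobulin heavy chain locus, 7 had a core.

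The 4 Hox clusters, taken with 50 kb on either side, held 13 members, 4 each in HoxA and HoxB, 2 in HoxC and 3 in HoxD. None of the 13 had a CTCF core anywhere in the progenitor domain, where 38.6% of all members did. The rule left out domains within 1 kb of a protein-coding TSS, so cores near Hox promoters could not be counted here. Their widths varied widely between the lists, and the EB list often held only a small piece. The member at chr2:74749429-74750148 in HoxD, 3.76 kb from a Hoxd3 TSS, was 53 bp wide in EB, 720 in day 2 progenitors and 875 in no Dox, with 892, 427 and 798 bp in iHoxc6, iHoxc9 and iHoxc10. The member next to it, chr2:74752778-74753445, was 44 bp in EB and 240 to 869 bp elsewhere. In HoxC, whose genes the transgenes were taken from, the member at chr15:102987504-102987724, in an intron and 2.88 kb from a Hoxc8 TSS, was 166 bp in EB and 167 to 398 bp in the other lists. The member at chr15:103069181-103069519 was 29 bp in EB and 286 to 462 bp elsewhere. Over the 13 Hox members the EB widths ran from 29 to 292 bp, and the median EB width of all members without a core in the central window was 326 bp.

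At the imprinted loci the extent of the members with a core also varied. The printed domain of Dlk1-Meg3, at chr12:109542939-109543186, was 422 bp wide in EB, 248 in day 2 progenitors and 419 in no Dox, with 465, 165 and 135 bp in iHoxc6, iHoxc9 and iHoxc10. That of Igf2r-Airn, at chr17:12810478-12810698, was 199 bp in EB, 221 in day 2 progenitors and 89 in no Dox, with 346, 63 and 61 bp in iHoxc6, iHoxc9 and iHoxc10. Peg3-Usp29 held 7 members, 2 of them with a core. Xist-Jpx held 2, both with a core, at chrX:103532705-103532944 (116 to 251 bp over the lists) and chrX:103555643-103555869 (114 to 243 bp). Kcnq1-Cdkn1c held 3, of which that at chr7:143296111-143297011, 901 bp wide in day 2 progenitors and 340 (iHoxc10) to 1569 bp (no Dox) elsewhere, lies within 1 kb of a TSS of another kind of transcript. The H19-Igf2 locus held 1 member, without a core, and Mest held none.

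Among the other loci, Olig2-Olig1 held 3 members. That at chr16:91222697-91223315, 2.14 kb from the Olig2 TSS, was 68 bp wide in EB, 619 in day 2 progenitors and 710 in no Dox, with 304, 43 and 265 bp in iHoxc6, iHoxc9 and iHoxc10. This domain held a core outside its centre. Olig2 is the factor that defines motor neuron progenitors. The member of this locus with a core in the centre, chr16:91314178-91314390, lay 44.4 kb from Olig1 and was 141 to 329 bp wide. Sox2-Sox2ot and Shh-Lmbr1 held 2 members each, none with a core. In 1 of each pair the iHoxc9 list held only a piece of 27 or 28 bp. The other lists outside EB held 371 bp (iHoxc10) to 768 bp (iHoxc6) and 286 bp (iHoxc6) to 673 bp (day 2). The second Sox2-Sox2ot member was also a small piece in iHoxc9, at 41 bp, against 144 bp (iHoxc10) to 485 bp (EB). The second Shh-Lmbr1 member was 121 bp wide in iHoxc9 and 122 bp (no Dox) to 518 bp (iHoxc6) in the others. Myc-Pvt1 held 2, both with a core, 250 to 670 bp and 167 to 435 bp wide. The beta-globin locus Hbb, used by red cells, held none.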

How the data were processed

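ATAC-seq domains of 12 samples in 6 groups of 2 were used. Per the study's methods and the submitters' processing notes, the authors mapped paired-end reads to mm10 with Bowtie2 2.2.2, used Picard 2.8.2, and called accessible domains with DomainFinder on both replicates of a group together. Its settings and the handling of reads with several matches are not given in the sources used here. The deposited files hold start and end coordinates in bp and no height, count or score, so the read depth per sample is unknown. Unlike the others, the no Dox list has 3 further constant columns, and the day in its name differs from that of its label, which was used. The name of the no Dox list also carries a tag that the other names lack. Whether its calling settings were the same is not given in the sources used here. Starts were read as counted from 0 and printed from 1, and as the base is not stated, positions are uncertain by 1 bp. Domains on the mitochondrial genome and unplaced sequences were not used.

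Sequences were read from RefSeq GRCm38.p6 and genes from GENCODE M21. Any 1 bp of overlap counted as shared, and widths in another list are sums over overlapping domains. Motifs had to lie wholly within the central 200 bp. The nearest gene was that of the nearest protein-coding TSS, and the gap was measured from the domain's edge. The members, gene lists, loci and motifs were chosen with earlier results of these data known. Genes named are those of the lists and the 10 nearest to the most members. Sites named are the 5 widest, the 5 with the most cores and those in the loci. The domains with mitochondrial words and the largest stretches of members were chosen after their values were seen. Python 3.11.15, NumPy 2.4.6, SciPy 1.17.1, pysam 0.24.0, samtools 1.23.1 and Matplotlib 3.10.9 were used. Overlap, distance, motif, word and interval code was tested on simulated data with 6 kinds of exact check, of which 0 differed. Alternatives covered the width, overlap, TSS and motif settings and each list left out. Some items withheld for evaluation are not reported here.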

Additional observations from a re-analysis of the deposited data

How the results depend on the processing

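No paired analysis was possible because each list pools both replicates and carries no replicate number, and leaving out a replicate was not possible either. A count here changed when it moved by over 1.5 times, and a share or difference when it left its interval. The number of members, 8163, changed with a minimum width of 300 bp (5428), with at least 50% of the progenitor domain covered (3437) and without the EB list (12484). Without a minimum width 11329 domains qualified. The share of members with a CTCF core and its difference from the other distal domains kept their direction in each setting run. They were 34.9% and 23.2 points without a minimum width, 13.8% and 10.7 points from 300 bp, 31.4% and 22.4 points with 50% covered, 27.5% and 21.7 points with TSS of all gene types, 22.6% and 16.7 points with gene starts only, and 17.8% and 11.1 points without EB. Whole domains gave 38.6% and 30.2 points, no mismatch 9.59% and 7.94 points, and at most 2 mismatches 45.9% and 24.9 points. Of settings chosen after seeing the data, the reversed letters gave 0.625% and 0.336 points. The difference was 45.1 points at 150 to under 250 bp, 9.51 at 400 to under 700 bp and 2.66 at 700 bp or more, and 10.3, 21.9, 21.1 and 6.94 points in GC classes from low to high. Leaving out the no Dox, iHoxc6, iHoxc9 or iHoxc10 list, or a TSS limit of 5 kb, left the members' number, share and difference within these bounds. The widest list's median width was 1.72 times the narrowest list's, 1.87 times without a minimum width and 1.37 times with 50% covered. The intergenic share was 50.9% with the 5 kb limit. Of 26 other motifs, 7 were more frequent in members, and 12 were in whole domains, where CATCTG (2.56 points), CCAAT (4.22) and TTGGCA (1.00) turned and the Meis site (0.253) had an interval that held 0. Listed genes nearest to a member were 45.2%, and 41.8% within 100 kb. The causes of these shifts were not tested, and with no depth, no replicate values and 1 list per group, none of the differences between groups has an error.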
